A study of Homo sapiens with 12 samples.

Results

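Hep3B is an established human hepatocellular carcinoma (HCC) cell line, and its 4 RNA-seq libraries hold both single drugs and their combination. They came from untreated cells, from cells given the mTOR kinase inhibitor AZD8055 at 100 nM, from cells given compound #57, an allosteric inhibitor of the phosphatase SHP2, and from cells given both, all labelled WT, with 48 h of treatment. The combination held 100 nM of AZD8055 and 5 µM of compound #57, whereas the dose of compound #57 alone is not given for the sequenced cells, so the same dose was assumed. These are 4 of the 12 libraries of the series, which also covers the HCC cell lines Huh7 (48 h) and MHCC97H (24 h) with the same 4 treatments. Each condition is 1 library of 1 cell line, without a replicate, so no p-value is given within Hep3B. For each gene, the log2 changes of both single drugs against untreated cells were added and taken from the log2 change of the combination. This difference is called the departure here. A departure of 0 means that the fold changes of both drugs multiplied, and a departure of 1 means that the combination was 2-fold above the level given by both drugs together. Reads per gene were recovered from the deposited values, and 9608 of the 11548 genes of the table had a mean of at least 100 reads per 10000000 over the 4 libraries and over 3 reads in each. These are called well-counted genes.

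mTOR is a kinase that drives protein synthesis, ribosome production and lipid synthesis. SHP2, the product of PTPN11, passes signals of receptor tyrosine kinases on to RAS, which activates the kinase ERK. ERK switches on genes such as DUSP6 and the Sprouty genes, whose products hold ERK signaling back, and these genes are widely used as readouts of ERK activity. The sterol regulators SREBP1 and SREBP2 switch on genes of cholesterol and fatty acid synthesis, and their activation depends in part on mTOR. The study asked whether SHP2 inhibition prevents cells from restoring mTOR signaling under AZD8055. The comparison of the combination with both single drugs bears on which transcripts in Hep3B cells were not given by adding the 2 changes.

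The 4 Hep3B libraries held between 10659952 and 15618242 reads. Of the hepatoma markers, 16 of 16 were in the table and all of these were well counted, with ALB as the gene with the most reads. Of 22 markers of other cell types, 7 were in the table and 3 were well counted, which were EPCAM, KRT19 and SOX9, all epithelial genes. These 3 genes together took between 0.0656% of reads in untreated cells and 0.124% in the combination. PTPRC, CD3E, CD14, CD68, VWF and CDH5 were not in the table. Since the departure is made of single libraries, whatever sets 1 of these 4 libraries apart enters the departure of every gene.

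Most genes lay close to the sum of both drugs. The departure had a median of 0.04 and an SD of 0.43 over the well-counted genes, with a median counting error of 0.12, and 81.4% of the genes lay within 0.5 of 0. For comparison, the SD over genes was 0.43 for the change with AZD8055, 0.69 with compound #57 and 0.79 with the combination. The change itself was within 0.5 of 0 in 83.6% of genes with AZD8055, 65.7% with compound #57 and 57.6% with the combination. Genes close to the sum thus include many that hardly changed with either drug. A gene was called when its departure was at least 2-fold and its 95% interval for counting error lay on 1 side of 0. By this rule, 54 genes (0.562% of those tested) were above the sum and 253 (2.63%) were below it. Just inside the limit of 1 were RAB3D at 1.0007 and CHRD at -1.0015, and just outside it were AMDHD2 at -0.9994, TMEM97 at -0.9984, D2HGDH at -0.9982 and KNG1 at -0.9981. Intervals here cover counting error only and say nothing of how a second culture would vary.

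**Figure D1:**
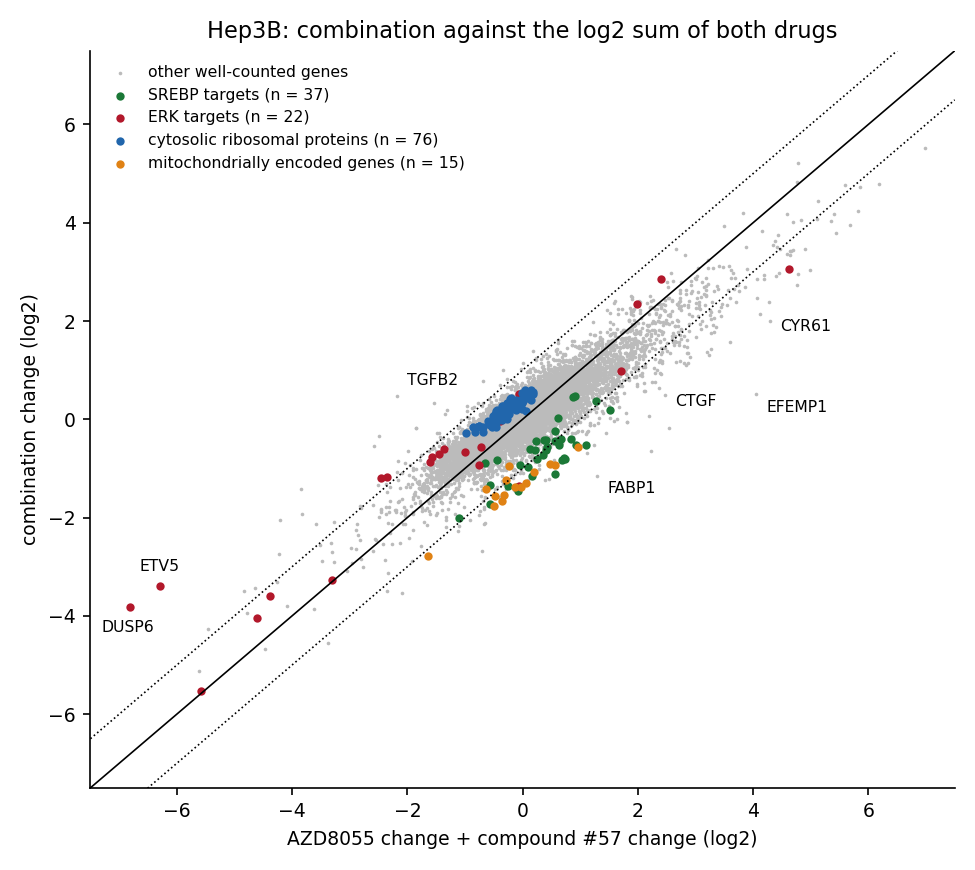
Each point is a well-counted gene in Hep3B, with the summed log2 changes of AZD8055 and compound #57 on the x axis and the log2 change of the combination on the y axis. The solid line marks the sum and the dotted lines a 2-fold departure from it. SREBP targets and mitochondrially encoded genes lie below the line, cytosolic ribosomal proteins lie above it, and DUSP6 and ETV5 are far above it at the left.

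Genes below the sum were mostly genes that were higher with compound #57 alone. Of the 253 genes below the sum, 225 were higher with compound #57 than in untreated cells, against 4638 of all 9608 genes. With AZD8055, 188 of the 253 were higher, against 4785 of all genes. The median log2 change of the 253 was 0.51 with AZD8055, 1.17 with compound #57 and 0.37 with the combination. Of the 54 genes above the sum, 50 were lower with compound #57 and 37 were lower with AZD8055, against 4970 and 4823 of all genes. The medians of the 54 were -0.29 with AZD8055, -1.28 with compound #57 and -0.37 with the combination. The untreated library and both single-drug libraries enter the departure as well as these changes. A deviation of 1 of these libraries by itself thus moves the departure opposite to the changes that the library enters. The part of such deviations in these counts was not tested.

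The called genes were sorted by their single-drug changes, with 0.5 on the log2 scale as the limit of a response. In 216 of 307 genes, 176 of them below and 40 above the sum, the combination stopped short of the sum without passing 0.5 in the opposite direction. Of the 176, 131 were at least 2-fold higher with compound #57 alone. The combination was within 0.5 of AZD8055 alone in 90, of compound #57 alone in 57 and of untreated cells in 58. Both single-drug changes were within 0.5 in 42 genes, of which 35 were below the sum. In 22 genes, 21 of them below the sum, the combination was past 0.5 in the direction opposite to the sum. In 14 genes, 13 of them below the sum, the combination went further than the sum, and in 13 genes the changes with the single drugs were past 0.5 in opposite directions. On the linear scale, 241 genes were above and 182 below the sum. Against the highest single agent, the drug whose change lay furthest in the direction of the combination, the counts were 90 and 103. More genes lay below than above the sum on the log2 scale but not on the linear scale. Both alternatives used the counting error of the log2 departure, and a linear sum near 0 gives an uncertain value.

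**Figure D2:**
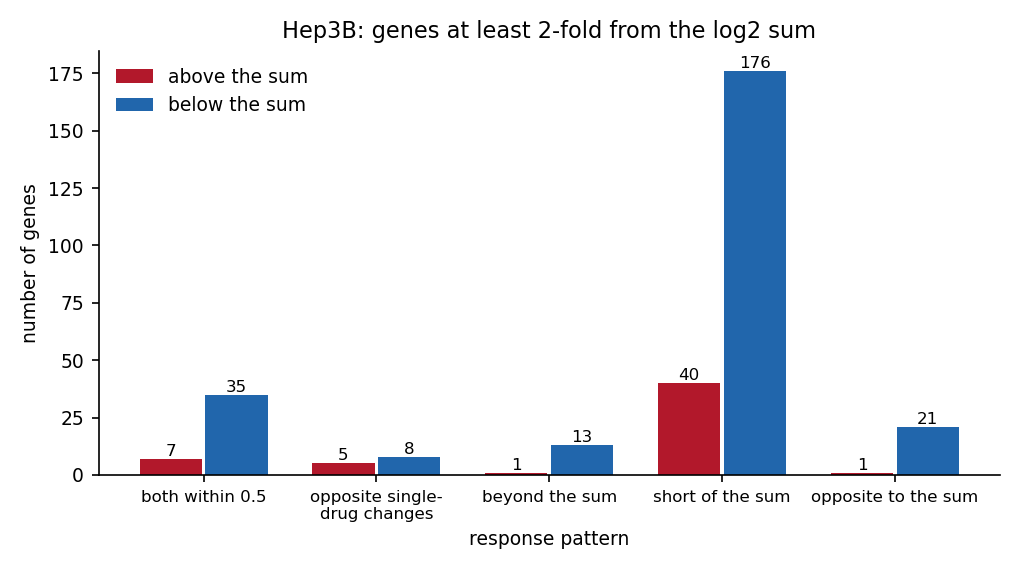
Bars give the number of Hep3B genes at least 2-fold above or below the log2 sum, by the pattern of their single-drug and combination changes. The tallest bar, at 176 genes, is that of genes below the sum in which the combination stopped short of it.

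Among the genes that ERK activates was DUSP6, which had the highest departure of all well-counted genes. Of 30 listed ERK targets, 26 were in the table and 22 were well counted. Their median log2 change was 0.50 with AZD8055, -1.67 with compound #57 and -0.83 with the combination, and their median departure was 0.52, against 0.04 over all well-counted genes. Of the 22, 4 (18.2%) were called above and 2 (9.09%) below the sum, against 0.562% and 2.63% of all tested genes. In 16 the library with compound #57 was the lowest of the 4, as in 2551 of all 9608 genes. On the linear scale, where the changes in reads were added in place of the log2 changes, the median over the 19 members with a sum above 0 was -0.25. The members left out there, DUSP6, ETV5 and SPRY1, all had a departure above 0. Against the highest single agent the median over all 22 was 1.01. Compound #57 alone was below untreated cells in 18 of 22, in 16 of them at least 2-fold. The combination was at least 2-fold below untreated cells in 9.

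DUSP6, a phosphatase that switches ERK off (chr12:89347235-89352501, minus strand, hg38), had 924, 609, 11.5 and 64.8 reads per 10000000 in untreated cells, with AZD8055, with compound #57 and with the combination. All values below are reads per 10000000 in this order of libraries. DUSP6 was lowest with compound #57 alone and higher with the combination, yet still far below untreated cells. Its departure was 2.99 (2.25 to 3.74), where the parentheses give the 95% counting interval, which is 7.96-fold above the sum. ETV5, a transcription factor of the PEA3 family, showed the same order of libraries, with 475, 389, 6.40 and 44.6 reads and a departure of 2.91 (1.94 to 3.88). The level of DUSP6 with compound #57 rests on 18 reads and that of ETV5 on 10, and both intervals are wide for this. The other members of that family were not called. ETV4 had 401, 658, 8.96 and 23.5 reads and a departure of 0.58 (-0.34 to 1.5), which was -3.45 on the linear scale. ETV1 had 470.0, 419.6, 52.5 and 47.8 reads and a departure of 0.03 (-0.48 to 0.54). It was 3.96 on the linear scale, where its sum was near 0 and this value is uncertain.

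Among the Sprouty and SPRED genes, which restrain signaling from receptors to ERK, SPRED1 was called, with 359, 416, 60.2 and 159 reads and a departure of 1.18 (0.77 to 1.58). SPRY4 had 3 reads in the library with compound #57 and was left out of the calls, with 530.0, 874, 1.92 and 62.4 reads per 10000000. SPRED2, SPRY1 and SPRY2 had departures of 0.79 (0.61 to 0.97), 0.79 (0.10 to 1.49) and 0.74 (0.34 to 1.14), with intervals above 0. IER3, an immediate early gene, was higher with AZD8055 and lower with compound #57, with 1946, 2942, 234 and 851 reads and a departure of 1.26 (1.07 to 1.45), which was -0.53 on the linear scale. In all of these genes, the library with compound #57 alone was the lowest of the 4.

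The immediate early gene EGR1 had 798, 1067, 11.5 and 16.2 reads and a departure of 0.04 (-0.87 to 0.96), a wide interval that rests on 18 reads with compound #57 and 20 with the combination, and it was at -4.03 on the linear scale. The MYC gene, a driver of growth, had 1714, 2131, 533 and 1129 reads and a departure of 0.77 (0.62 to 0.92). Departures of DUSP5, EREG, DUSP4, KLF6, EPHA2, ERRFI1 and IER2 were 0.76 (0.08 to 1.43), 0.58 (0.17 to 0.98), 0.46 (-0.15 to 1.06), 0.36 (0.18 to 0.54), 0.35 (0.20 to 0.51), 0.34 (0.22 to 0.46) and 0.15 (-0.06 to 0.36). CCND1, which encodes cyclin D1, had a departure of -0.18 (-0.31 to -0.04), and that of PHLDA1 was -0.73 (-0.85 to -0.60). Both genes of the list called below the sum encode secreted ligands. AREG, which encodes the EGFR ligand amphiregulin, had 84.4, 661, 269.6 and 709.9 reads and a departure of -1.56 (-1.92 to -1.20), so that AZD8055 alone and the combination were alike and the added change of compound #57 was missing. LIF, a cytokine gene, had 151, 402, 53.8 and 58.3 reads and a departure of -1.29 (-1.81 to -0.77). FOS, HBEGF and EMP1 had too few reads to be well counted.

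Other genes above the sum shared this order, with the lowest level under compound #57 alone. TGFB2, which encodes a TGF-β ligand (chr1:218345336-218444619, plus strand, hg38), had 336, 398, 61.5 and 468 reads and a departure of 2.66 (2.29 to 3.03). Its level in the combination was above untreated cells, although its log2 change with compound #57 alone was -2.43. GJA1, which encodes the gap junction protein connexin 43, had 1938, 1779.9, 145 and 720.4 reads and a departure of 2.42 (2.20 to 2.65). ADAMTS9, a secreted protease, had 565, 474, 119 and 448 reads and a departure of 2.16 (1.87 to 2.45). C8orf4 had 381, 1247, 18.6 and 261 reads and a departure of 2.03 (1.47 to 2.60), although on the linear scale it was below the sum, at -1.76. PDE3A, a phosphodiesterase, TOX3 and RASGEF1B had departures of 1.90 (1.53 to 2.28), 1.66 (1.37 to 1.96) and 1.87 (1.35 to 2.39).

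ATP10D differed from the other 9 genes whose interval was farthest above the sum, since it was at a similar low level in all 3 treated libraries, with 819, 155, 231 and 198 reads and a departure of 2.17 (1.85 to 2.50). UGT2B4, a glucuronidation enzyme of bile acids and drugs, had the same pattern, with 885, 384, 358 and 348 reads and a departure of 1.16 (0.92 to 1.40). In both genes each drug alone and the combination lay within a narrow range, all below untreated cells.

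A small number of genes were higher in the combination while neither single drug moved them by 0.5. SOX4, a transcription factor of progenitor cells, had 2983, 2892, 3007 and 6072 reads, so that only the combination stood apart, and its departure was 1.06 (0.97 to 1.15). SPON2 had 809, 840.1, 787 and 1787 reads and a departure of 1.13 (0.96 to 1.29), and ABLIM1 had 1942, 1536, 1437 and 2447 reads and a departure of 1.10 (0.99 to 1.22). RNF24 was the only gene above the sum in the pattern opposite to the sum, with 125, 135, 71.1 and 216 reads and a departure of 1.47 (1.02 to 1.93), and GPRC5B the only one that went beyond it, with 132, 99.8, 198 and 349 reads and 1.22 (0.81 to 1.62).

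Genes of cholesterol and fatty acid synthesis were below the sum as a group. All 37 well-counted SREBP targets, of 38 listed, had a departure below 0, against 4332 of all 9608 genes. Of the 37, 21 (56.8%) were called below the sum against 2.63% of all tested genes. Their median log2 change was -0.22 with AZD8055, 0.58 with compound #57 and -0.63 with the combination, so that the group was higher with compound #57 and lowest with both drugs. The median departure was -1.06, with a range from -1.66 to -0.23. Against the highest single agent, the drug whose change lay furthest in the direction of the combination, it was -0.51. Together these genes took 1.47% of the reads of untreated cells, 1.18% with AZD8055, 1.89% with compound #57 and 0.788% with the combination.

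The promoters of these genes often hold a CCAAT box, the site of NF-Y, which binds next to SREBP. In the 250 bases before the start site, the letters CCAAT on either strand were found in 23 of the 29 well-counted SREBP targets with an entry in the RefSeq promoter table (GRCh38.p14), which is 79.3%, against 37.0% of 27305 genes in the table and 42.4% of the well-counted genes with an entry. A match of letters is no evidence of binding. A strict sterol element, TCACNCCAC, was found in 1 of the 29. The stretches of HMGCS1, INSIG1 and STARD4 are shown since these 3 called genes cover synthesis, control and transport of sterols, with the CCAAT letters on either strand in capitals. They lie at chr5:43313413-43313662 on the minus strand, at chr7:155297628-155297877 on the plus strand and at chr5:111512536-111512785 on the minus strand, each read 5′ to 3′ along its gene. For HMGCS1, the first of 2 start sites is given, and the stretch before the second holds no CCAAT letters.
HMGCS1: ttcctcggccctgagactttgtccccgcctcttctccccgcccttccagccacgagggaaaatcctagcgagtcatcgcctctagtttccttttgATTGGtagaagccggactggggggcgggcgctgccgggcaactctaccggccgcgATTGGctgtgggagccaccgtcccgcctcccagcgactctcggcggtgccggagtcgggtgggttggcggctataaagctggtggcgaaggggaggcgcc
INSIG1: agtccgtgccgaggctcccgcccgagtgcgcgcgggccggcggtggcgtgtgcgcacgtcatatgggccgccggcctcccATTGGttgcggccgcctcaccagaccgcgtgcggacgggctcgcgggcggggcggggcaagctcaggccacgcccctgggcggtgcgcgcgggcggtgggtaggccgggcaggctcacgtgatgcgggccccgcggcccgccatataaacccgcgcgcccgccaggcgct
STARD4: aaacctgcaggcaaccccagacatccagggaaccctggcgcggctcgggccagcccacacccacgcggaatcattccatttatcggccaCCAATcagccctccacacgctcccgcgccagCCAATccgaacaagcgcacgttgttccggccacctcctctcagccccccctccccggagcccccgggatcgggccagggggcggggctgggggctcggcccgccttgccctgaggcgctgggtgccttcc

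HMGCS1, which makes the precursor of mevalonate, had 8817, 7389, 16886 and 4984 reads in untreated cells, with AZD8055, with compound #57 and with the combination, and a departure of -1.51 (-1.56 to -1.45). Compound #57 alone was the highest library and the combination the lowest. MVK, MVD, LSS and IDI1, further enzymes of the pathway, had departures of -1.55 (-1.81 to -1.28), -1.5 (-1.66 to -1.34), -1.45 (-1.56 to -1.35) and -1.15 (-1.27 to -1.04). FDFT1, the first enzyme committed to sterols, was level in all libraries but the combination, with 2649, 2504, 2641 and 968 reads and a departure of -1.37 (-1.48 to -1.25).

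INSIG1, which retains SREBP in the endoplasmic reticulum and is itself a target, had 827, 663, 1152 and 372 reads and a departure of -1.31 (-1.51 to -1.11). STARD4, a carrier of cholesterol, had the lowest departure of the list at -1.66 (-1.85 to -1.48), with 899, 775, 1534 and 417 reads. SREBF1 and SREBF2, which encode the SREBPs, had departures of -0.74 (-0.88 to -0.60) and -0.44 (-0.52 to -0.37).

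On the fatty acid side, SCD, which makes monounsaturated fatty acids, had 34297, 21913, 36152 and 10354 reads and went beyond the sum, with a departure of -1.16 (-1.19 to -1.12). FASN, the fatty acid synthase, had 24795, 17855, 23209 and 9820.4 reads and a departure of -0.77 (-0.81 to -0.73). ACACA, which makes malonyl-CoA for this synthesis, was nearest to the sum of all members at -0.23 (-0.35 to -0.11). ACSS2, which activates acetate, had 519, 365, 1575 and 362 reads and -1.61 (-1.84 to -1.38). GPAM, which starts glycerolipid synthesis and is not in the list, was also below the sum, with 1457, 987, 1346 and 332 reads and a departure of -1.45 (-1.64 to -1.27). In 32 of the 37 SREBP targets the combination was the lowest of the 4 libraries, against 2499 of all 9608 genes. The exceptions in the list included SREBF2, PMVK, TM7SF2 and LPIN1.

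**Figure D3:**
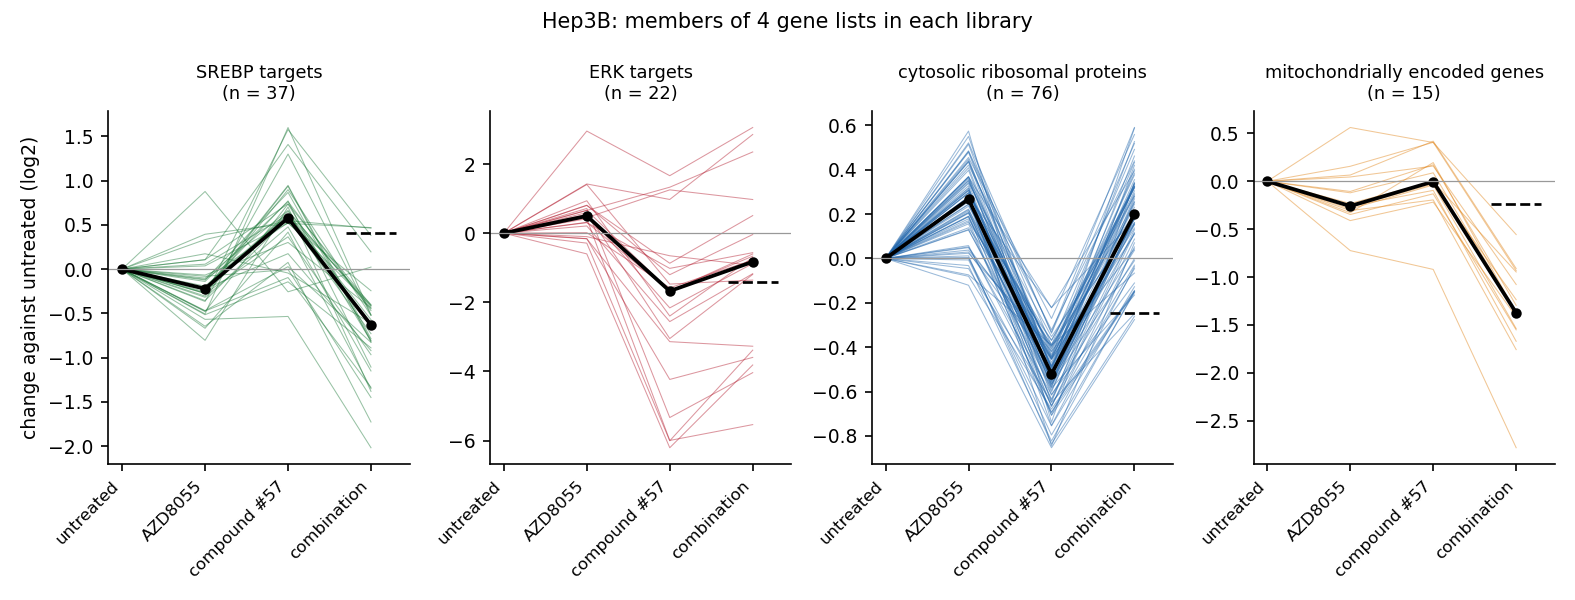
Thin lines are single well-counted genes in the 4 Hep3B libraries, as log2 change against untreated cells, with the black line as their median and the dashed mark as the median log2 sum of both drugs. The y axes differ between panels. The combination lies below the dashed mark for SREBP targets and mitochondrially encoded genes and above it for ERK targets and cytosolic ribosomal proteins.

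Transcripts made in the mitochondria were lowest in the combination library. This list was made after their values were seen. All 15 mitochondrially encoded rRNAs and mRNAs had a departure below 0, from -1.52 to -0.71, against 4332 of all 9608 genes. Of the 15, 12 (80.0%) were called below the sum, against 2.63% of all tested genes. The list took 4.17% of the reads of untreated cells, 4.09% with AZD8055, 4.66% with compound #57 and 1.87% with the combination. MT-CO1, a subunit of cytochrome c oxidase, had 48477, 54035, 64256 and 25404 reads and a departure of -1.5 (-1.52 to -1.47). MT-RNR2, the large ribosomal RNA of mitochondria, had 44274, 65335, 58618 and 30111 reads and -1.52 (-1.55 to -1.5), and MT-CYB, of complex III, had 23146, 24216, 30943 and 12312 reads and -1.39 (-1.43 to -1.36). MT-ND6, the one mRNA of this list on the light strand, was lower in every treated library, with 1705, 1032, 901 and 247 reads and a departure of -1.14 (-1.34 to -0.93).

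The respiratory chain subunits encoded in the nucleus did not share this. Their 75 well-counted genes had a median departure of 0.03, with 0 called below and 0 above the sum. The mitochondrial share sets RNA of 1 compartment against the rest of a library, and it can move with RNA quality and extraction as well as with treatment. With 1 library per condition these cannot be told apart.

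Matrix genes and targets of YAP, a coactivator that works through TEAD factors, departed in both directions. Of 63 listed genes, 41 were well counted, with 11 (26.8%) called below and 3 (7.32%) above the sum, against 2.63% and 0.562% of all tested genes. The median departure was -0.34, but -0.078 with a mean of at least 400 scaled reads, -0.085 on the linear scale, -0.12 after the fit on GC content and length, and 0.14 against the highest single agent. Their median log2 change was 0.58 with AZD8055, 0.41 with compound #57 and 0.82 with the combination. CYR61 (also CCN1), a secreted matricellular protein and classical YAP target, had 312, 2514, 761 and 1258 reads and the lowest departure of the list at -2.28 (-2.48 to -2.08). CTGF (also CCN2), its relative, had 1139, 5889, 1217 and 1596 reads and a departure of -1.98 (-2.11 to -1.85). Both were highest with AZD8055 alone, and the combination had less than AZD8055 alone.

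The stretch before the CTGF start site is shown because it holds the TEAD letters GGAATG 3 times, in capitals, at chr6:131951373-131951622 on the minus strand (GRCh38.p14). On either strand these letters were in the same window of 9 of 32 genes of the list with an entry (28.1%) and of 14.3% of all genes in the table.
CTGF: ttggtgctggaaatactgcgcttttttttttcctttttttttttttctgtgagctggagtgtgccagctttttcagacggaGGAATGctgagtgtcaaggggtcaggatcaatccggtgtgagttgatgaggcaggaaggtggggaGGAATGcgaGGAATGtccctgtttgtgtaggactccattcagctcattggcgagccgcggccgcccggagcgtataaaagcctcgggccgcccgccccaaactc

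Other targets of YAP kept more of their AZD8055 response. ANKRD1 was highest in the combination, with 759.9, 5084, 2863 and 8208 reads, but below the sum, with a departure of -1.22 (-1.34 to -1.10). AMOTL2 and AJUBA had departures of -1.20 (-1.34 to -1.05) and -1.08 (-1.22 to -0.95), and their highest library was also the combination. The integrin gene ITGA3 had 50.7, 406, 60.8 and 126 reads and -1.93 (-2.48 to -1.39), and the laminin gene LAMA3 had 51.6, 90.0, 1559.7 and 811 reads and -1.73 (-2.21 to -1.26). NID2, a basement membrane protein, went beyond the sum, with 157, 110.4, 136 and 23.5 reads and a departure of -1.98 (-2.62 to -1.34).

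The members above the sum included TGFB2 and THBS1, an activator of latent TGF-β, with 5518, 9925, 2330.0 and 8994 reads and a departure of 1.10 (1.03 to 1.17). Both were lower with compound #57 alone and above untreated cells in the combination. SERPINE2, a protease inhibitor, was below the sum, with 204, 943, 60.2 and 87.5 reads and -1.67 (-2.12 to -1.22).

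EFEMP1, an extracellular matrix protein outside the list (chr2:55865967-55924139, minus strand, hg38), was the gene farthest below the sum. It had 43.2, 266, 119.7 and 62.4 reads and a departure of -3.52 (-4.11 to -2.94), 11.5-fold below the sum. Each single drug alone was above untreated cells, and the combination was above them by less than either drug alone. Among the 10 genes whose interval was farthest below the sum were also SYT12, TM4SF4, SEMA3B, SLC25A35 and MST1, which had departures of -2.73 (-3.41 to -2.04), -1.88 (-2.07 to -1.68), -1.98 (-2.35 to -1.60), -2.14 (-2.69 to -1.59) and -1.86 (-2.13 to -1.58). For TM4SF4, SLC25A35 and MST1 the combination was close to untreated cells while both drugs alone were above them. COL2A1, a collagen gene, was nearly level under the single drugs and lower in the combination, with 3158, 3526, 3684 and 1343 reads and -1.61 (-1.72 to -1.51).

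Many genes of hepatocyte function were below the sum. Of 47 well-counted liver plasma proteins, 42 had a departure below 0, against 4332 of all 9608 genes, and the median departure was -0.64. Of these proteins 13 (27.7%) were called below and 0 above the sum, against 2.63% and 0.562% of all tested genes. The median log2 change was -0.07 with AZD8055, 0.62 with compound #57 and -0.23 with the combination. The fibrinogen genes, which encode the clotting protein, were alike. FGB had 1896, 1809, 23992 and 10488 reads and a departure of -1.13 (-1.22 to -1.03), with -1.20 (-1.27 to -1.13) for FGA and -1.24 (-1.31 to -1.17) for FGG, and for FGB the combination lay between untreated cells and compound #57 alone.

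SERPINA1, which encodes α1-antitrypsin, had 21275, 20786, 48984 and 19714 reads and a departure of -1.28 (-1.31 to -1.25), and here the combination was slightly below untreated cells and AZD8055 alone. HAMP, which encodes the iron hormone hepcidin, had 28.1, 91.6, 249.7 and 224 reads and the lowest departure of the list at -1.82 (-2.44 to -1.20). A2M, a protease inhibitor, was far lower in the combination than in the other libraries, with 17535, 14885, 18628 and 6442 reads and -1.30 (-1.34 to -1.25). ALB itself, which encodes albumin, had 211080.0, 119640.0, 402560.0 and 181160.0 reads, lower with AZD8055 and higher with compound #57, and a departure of -0.33 (-0.34 to -0.32). APOB, the protein of very low density lipoprotein, followed the sum, with 82236, 43773, 37636 and 22113 reads and 0.14 (0.12 to 0.17). TFPI, an inhibitor of coagulation, was the highest of the list at 0.61 (0.38 to 0.85).

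FABP1, the fatty acid binding protein of hepatocytes, had 538, 393, 1819 and 241 reads and a departure of -2.46 (-2.70 to -2.21). It was highest with compound #57 and lowest with the combination. CPS1, the entry enzyme of the urea cycle, had 120.1, 52.4, 599 and 74.6 reads and -1.81 (-2.34 to -1.28). Of 19 well-counted genes of bile acid and drug metabolism, 6 (31.6%) were called below and 1 (5.26%) above the sum, against 2.63% and 0.562% of all tested genes, with a median departure of -0.63. The transporter ABCC3 was lowest at -1.54 (-1.74 to -1.34), with 375, 851, 1106 and 861 reads, and NQO1, an oxidoreductase of the NRF2 response, had 3333, 2481, 2371 and 801 reads and -1.14 (-1.26 to -1.01).

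The liver transcription factors departed in both directions, with a median departure of -0.16 and an SD of 0.63 over 31 genes. NR0B2, ONECUT2 and SOX4 (9.68%) were called above and MLXIPL and CREB3L3 (6.45%) below, against 0.562% and 2.63% of all tested genes. MLXIPL, which encodes the glucose-responsive factor ChREBP, was lowest, with 690.4, 879, 1890.1 and 754 reads and -1.67 (-1.84 to -1.5). NR0B2, which encodes the repressor SHP (a nuclear receptor, not the phosphatase SHP2), was highest, with 262, 267, 64.0 and 167 reads and 1.34 (0.93 to 1.76). HNF4A, a master regulator of hepatocytes, had 2079, 2506, 3187 and 3184 reads and a departure of -0.27 (-0.37 to -0.17). Over the 16 hepatoma markers, the median departure was -0.34. SERPINA1, FGB and the keratin gene KRT18 (18.75%) were called below the sum, against 2.63% of all tested genes. SERPINA1 and FGB are also in the list of liver plasma proteins. Lower hepatocyte transcripts per cell and fewer cells that carry them cannot be told apart in bulk RNA.

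Genes for making ribosomes were above the sum by a small and even amount. All 76 well-counted cytosolic ribosomal protein genes had a departure above 0, against 5276 of all 9608 genes. The 76 ranged from 0.12 (RPS15A, with an interval of -0.01 to 0.25) to 0.71 (RPS27A), and none reached 2-fold. Their median log2 change was 0.27 with AZD8055, -0.52 with compound #57 and 0.20 with the combination, and the median departure was 0.48. The list took 3.45%, 4.18%, 2.36% and 3.99% of reads in untreated cells, with AZD8055, with compound #57 and with the combination. RPS27A had 6188, 6051, 3497 and 5586 reads and a departure of 0.71 (0.64 to 0.78). In all 76 genes the library with compound #57 was the lowest of the 4, against 2551 of all 9608 genes. Against the highest single agent, as defined above, the median departure was 0.017.

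The 57 well-counted genes of ribosome biogenesis had a median departure of 0.38, with 53 above 0, against 5276 of all 9608 genes. The median was 0.11 against the highest single agent and 0.76 on the linear scale. Unlike the ribosomal proteins, the biogenesis genes were lower in every treated library, with medians of -0.30, -1.02 and -0.88. POLR1E, a subunit of RNA polymerase I, was the 1 gene called (1.75%), above the sum, against 0.562% of all tested genes. It had 339.6, 290.4, 142 and 246 reads and a departure of 1.02 (0.69 to 1.35). DDX56, a helicase of ribosome assembly, was lowest at -0.24 (-0.37 to -0.10).

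Targets of ATF4, the factor of the amino acid response, had a median departure of -0.26, with 4 of 41 (9.76%) called below, against 2.63% of all tested genes, and 0 above the sum. PHGDH, the first enzyme of serine synthesis, had 855, 652, 2224 and 588 reads and a departure of -1.53 (-1.71 to -1.35). It was higher with compound #57 alone and below untreated cells in the combination. DDIT4, an inhibitor of mTORC1, was lower in each treated library and went beyond the sum, with 914, 387, 506 and 77.8 reads and -1.45 (-1.79 to -1.10). CHAC1 and NUPR1 had departures of -1.37 (-1.75 to -0.99) and -1.30 (-1.46 to -1.13). ATF4 itself was on the sum at 0.01 (-0.08 to 0.10), and ALDH18A1, of proline synthesis, was highest of the list at 0.64 (0.51 to 0.77).

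Interferon and antigen presentation genes were higher with either drug and did not add up. Of 23 well-counted genes, 22 had a departure below 0, against 4332 of all 9608, and 4 (17.4%) were called below the sum, against 2.63%. Against the highest single agent the median was 0.069. The median log2 change was 0.47 with AZD8055, 0.62 with compound #57 and 0.53 with the combination, against a median sum of 1.08. IFI6, an interferon-stimulated gene, had 71.3, 267, 90.3 and 45.4 reads and a departure of -2.87 (-3.44 to -2.29), and was below untreated cells only in the combination. ISG15, a ubiquitin-like protein, had 91.0, 197, 165 and 166 reads and -1.10 (-1.53 to -0.67). IFI35 and PARP9 were also called, at -1.37 (-1.79 to -0.95) and -1.15 (-1.47 to -0.84). The class I gene HLA-E was highest of the list at 0.17 (-0.04 to 0.38).

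The cell cycle lists held few large departures. DNA replication genes had a median departure of -0.19, from -0.84 for CCNE2, a cyclin of S-phase entry, to 0.39 for ORC1, of the origin complex. Of the 51, 40 were below 0, against 4332 of all 9608 genes. The combination was the lowest library in 41 of them, against 2499 of all genes. Mitosis genes had a median of 0.07 over 48 genes, from -0.48 for CDCA3 to 0.38 for CENPF, and their median log2 changes of -0.23, -0.59 and -0.83 came to nearly the sum. No gene of either list was called. Of 21 G1 regulators, with a median of -0.11, 1 (4.76%) was called below the sum, against 2.63% of all tested genes. This was GADD45B, a stress gene, with 145, 820.4, 648 and 1495 reads and -1.28 (-1.55 to -1.02). CCNG1 was highest of the list at 0.82 (0.66 to 0.99). On the linear scale GADD45B lay above the sum, at 0.18.

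The signaling lists held few called genes. Receptor tyrosine kinases had a median departure of 0.06 over 17 genes. FGFR1, a fibroblast growth factor receptor, was the 1 gene called (5.88%), above the sum, against 0.562% of all tested genes. It had 465, 382, 209 and 361 reads and a departure of 1.07 (0.79 to 1.34). DDR1, a collagen receptor, was lowest, with 578, 1879.7, 1192 and 2078 reads and -0.90 (-1.05 to -0.74). RAS pathway components had a median of 0.07 over 25 genes, from -0.52 for the adaptor GAB1 to 0.59 for the RAS inhibitor NF1. The insulin and PI3K pathway had a median of -0.07 over 33 genes, and the catalytic subunit PIK3CA was highest at 0.72. DDIT4 was called below the sum (3.03%), against 2.63% of all tested genes. FOXO factors and targets had a median of -0.05 over 21 genes, from -0.69 for CITED2 to 0.79 for FOXO1.

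Among the death regulators of the BCL2 family, none of 15 was called and the median was 0.04. BMF, which promotes apoptosis, was higher in every treated library, with 614, 2897, 1567 and 5341 reads, and its departure of -0.47 (-0.61 to -0.33) was the lowest of the family, while BAD was highest at 0.33 (-0.03 to 0.70). BMF in the combination was thus well above either drug alone, somewhat below the log2 sum and above the sum on the linear scale, at 0.47.

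The remaining lists were centred near 0. Glycolysis had a median departure of 0.08 over 22 genes, with HK2, a hexokinase, highest at 0.59 (0.46 to 0.71). ALDOC, an aldolase, was called below the sum at -1.33 (-1.57 to -1.10). It was the 1 gene called (4.55%), against 2.63% of all tested genes. The hypoxia response had a median of 0.13 over 28 genes. Above and below the sum 1 gene each (3.57%) was called, against 0.562% and 2.63% of all tested genes. The gene below was NDRG1, with 111, 196, 1520.0 and 1156 reads and -1.22 (-1.55 to -0.88). Lysosome and autophagy genes had a median of -0.05 over 48 genes, from -0.63 for NEU1 to 0.50 for LAMP2. The unfolded protein response had a median of -0.06 over 29 genes, from -0.80 for HERPUD1 to 0.41 for EIF2AK3. Housekeeping genes, a check of the scaling, had a median of 0.06 over 22 genes, from -0.56 for GUSB to 0.39 for GPI, with none called.

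The departure also varied with the base composition of the transcripts. From the lowest to the highest of 5 groups of genes ordered by GC content, the median departure was 0.16, 0.13, 0.07, -0.04 and -0.11 over 1798 genes each. Over 5 equal groups of transcript length it went from 0.01 for the shortest to 0.13 for the longest. The 60 well-counted long noncoding RNAs of GENCODE, a list made after values were seen, had a median of -0.19. It was -0.086 after a fit on GC content and transcript length, and -0.061 on the linear scale over 59 of them. Called below the sum were 5 of the 60 (8.33%), against 2.63% of all tested genes. These were NEAT1, MIR22HG, ASB16-AS1, SH3BP5-AS1 and THAP9-AS1. The last 3 are antisense genes. Their reads cannot be told apart from those of their partners, since the use of strand in counting is not given. NEAT1, a nuclear noncoding RNA, had 3740.2, 5356, 5124 and 2538 reads and a departure of -1.53 (-1.61 to -1.45), and MALAT1 had 3318, 3350.5, 5898 and 3643 reads and -0.71 (-0.79 to -0.63). After a fit of the departure on GC content and transcript length, 64 genes were above and 194 below the sum.

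The same calculation in the other cell lines gave fewer genes below the sum, while Huh7 had slightly more above it than Hep3B. In Huh7, 61 of 9439 genes (0.646%) were above and 169 (1.79%) below the sum, and in MHCC97H 21 of 9166 (0.229%) and 34 (0.371%). The SD of the departure was 0.40 in Huh7 and 0.28 in MHCC97H. MHCC97H was sampled at 24 h, so that cell line and time cannot be told apart there. Of the 253 Hep3B genes below the sum, 206 were well counted in Huh7, and 124 of them (60.2%) had a departure below 0 there, against 50.4% of all genes well counted in both. In MHCC97H it was 90 of 156 (57.7%), against 56.2%. Of the 54 genes above the sum, 30 of 47 (63.8%) were above 0 in Huh7, against 49.6%, and 17 of 32 (53.1%) in MHCC97H, against 43.8%. No difference between cell lines can be tested with 1 departure in each.

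The named groups differed in which cell lines shared them. SREBP targets had a median departure of -1.06 in Hep3B, -0.57 in Huh7 and 0.09 in MHCC97H, and 36 of 37 were below 0 in Huh7 but 10 of 34 in MHCC97H. Cytosolic ribosomal proteins were above the sum in each cell line, with 0.48, 0.37 and 0.28 in the same order. Mitochondrially encoded genes had -1.26, 0.70 and -0.19, with 14 of 15 above 0 in Huh7. Liver plasma proteins had -0.64, -0.09 and -0.06, and ERK targets 0.52, 0.16 and -0.22. The departure of DUSP6 was 2.99 in Hep3B, 0.01 in Huh7 and -0.52 in MHCC97H, and that of CYR61 was -2.28, -1.49 and 0.56.

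**Figure D4:**
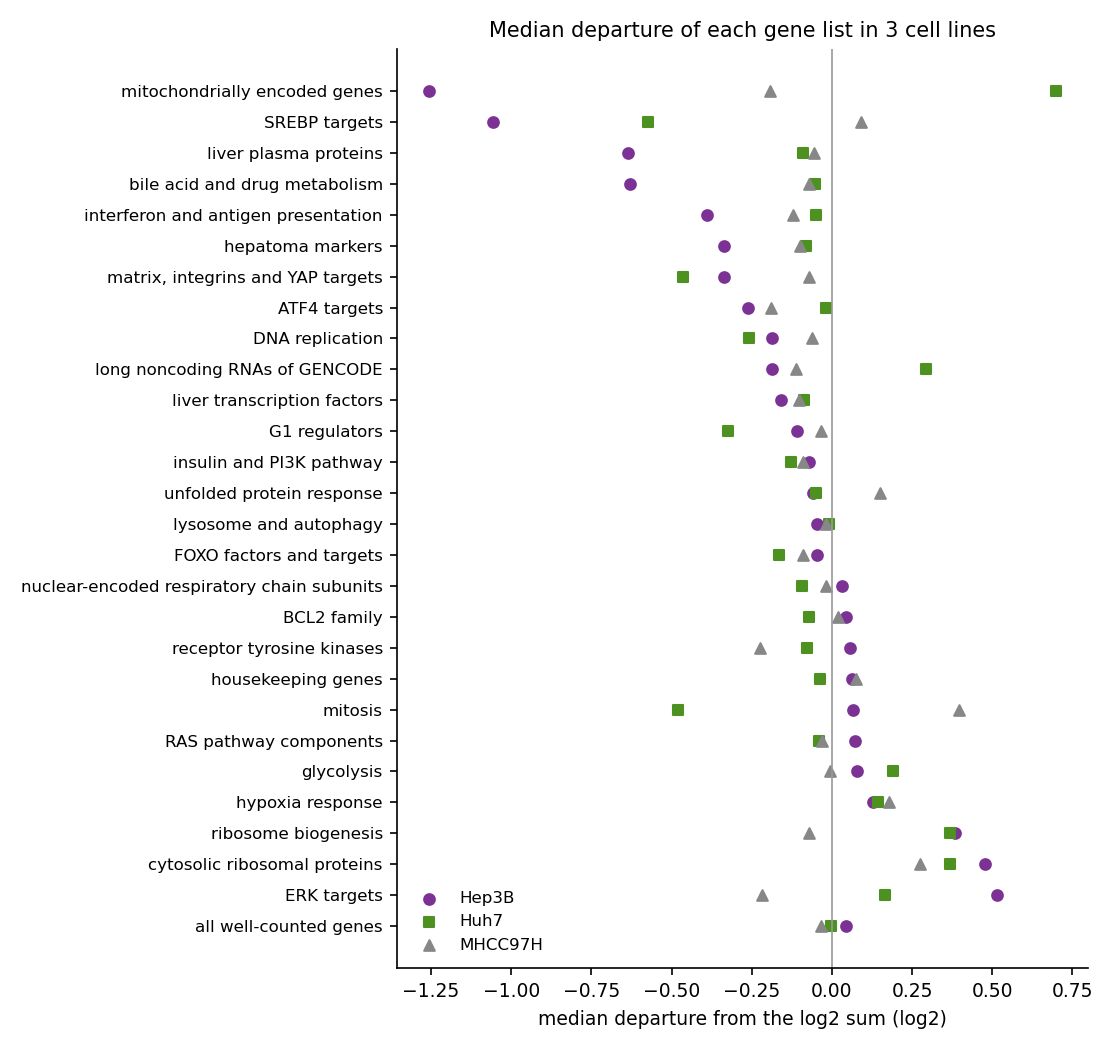
Symbols give the median departure from the log2 sum of each gene list in Hep3B, Huh7 and MHCC97H, over the members well counted in Hep3B and in that cell line. Hep3B is farthest to the left for mitochondrially encoded genes, SREBP targets, liver plasma proteins and genes of bile acid and drug metabolism.

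The only test that the series allows treats the cell lines as replicates and asks whether the mean departure of the 3 differs from 0. With limma over all 12 libraries and 11548 genes, 0 genes (0%) passed a Benjamini-Hochberg adjusted p of 0.05, and the smallest adjusted p was 1.0. An unadjusted p under 0.05 was found for 178 genes, and voom on the recovered reads gave 0 genes as well, with 218 at an unadjusted p under 0.05. Both counts are lower than evenly spread p-values would give over 11548 genes. This test does not bear on Hep3B alone, and it does not show that the drugs added up in any cell line.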

How the data were processed

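The study treated 3 HCC cell lines with 4 conditions and sequenced 1 RNA library of each, prepared with a TruSeq RNA kit per the study's methods and described as stranded polyA+ per the labels. Only the genome build hg38 is named. The aligner, the counting of reads, its use of strand and the normalization are not given in the sources used here. The authors deposited 1 table of log2 values for 11548 genes. All values were whole reads (tolerance 0.02) after inversion of the log2 scale, in which 0 reads stand at 0.001 and values are scaled to 10000000 reads per library. Library totals from these steps were 10659952 (untreated), 12225219 (AZD8055), 15618242 (compound #57) and 12339601 (combination) for Hep3B. From 99.0% to 99.3% of these reads lie in the table.

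The departure and its 95% counting interval (1.96 standard errors, 0.5 added to each count) were computed with Python 3.11.15, numpy 2.4.6 and pandas 2.3.3. Intervals cover counting error only and take reads as independent. PCR copies are not independent, so the intervals may be too narrow even for counting error. Genes with a mean of at least 100 scaled reads and over 3 reads in each Hep3B library entered. MDGA1, SOCS2 and SPRY4 failed the latter. limma 3.58.1 in R 4.3.3 tested the departure over all 12 libraries with the cell line as block. The steps were tested on simulated data. Alternatives were a value of 10 added, centring, TMM factors from own code, mean minimums of 50 and 400, a fold of 1.5, the linear sum, the highest single agent, response limits of 0.3 and 0.7, and a fit on GC content and length.

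Named were all measured ERK targets, the 10 genes in each direction whose interval was farthest from 0, 3 genes per pattern and direction, and the highest and lowest member of each list. Some genes are not reported here. Other genes were named after their values were seen. The members and lists were chosen with earlier results of these data known. Symbols matched GENCODE 44 for 10558 genes (91.4%), and 18 names turned into dates by spreadsheet software were not named. Overlapping genes and near copies, such as nuclear copies of mitochondrial genes, may share reads.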

Additional observations from a re-analysis of the deposited data

Results flagged for a closer look

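The mitochondrially encoded genes had a median departure of -1.26 in Hep3B and of 0.70 in Huh7, with all 15 below 0 in Hep3B and 14 of 15 above 0 in Huh7. In MHCC97H the median was -0.19. The opposite signs drew attention to this list, and the difference was not tested, since each cell line gives 1 departure. MT-ND6 was below 0 in both, at -1.14 in Hep3B and -0.56 in Huh7. MT-CO1 was at -1.5 and 0.77, and MT-RNR2 at -1.52 and 1.01. Reads of these genes may also fall on their nuclear copies, which makes single values uncertain.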

How the results depend on the processing

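Of 280 list medians under the alternatives, 256 kept their sign, and of the 24 that did not, 11 were set against the highest single agent and 4 on the linear scale. Of 488 values of named genes, 473 kept their sign, and 12 of the other 15 were on the linear scale. The 54 genes above the sum became 26 with a mean minimum of 400 scaled reads, 241 on the linear scale, 90 against the highest single agent and 478 at a 1.5-fold limit. The 253 below became 118 with the minimum of 400, 430 with all 11452 genes over 3 reads, 103 against the highest single agent and 812 at 1.5-fold. On the linear scale 65 genes had a sum of 0 or less and were left out. Totals without mitochondrial genes and ALB, an alternative chosen after seeing the data, gave 41 and 300. With a response limit of 0.3 and 0.7, the 42 genes with both single drugs within it became 15 and 69, the 13 with opposed drugs 28 and 8, and the 22 past untreated cells 40 and 9. The 14 that went further than the sum became 7 at 0.7. On the linear scale the sign turned for the medians of ERK targets (-0.25), receptor tyrosine kinases (-0.10), the unfolded protein response (0.075) and markers of other cell types (0.044). It also turned for the called genes IER3 (-0.53), C8orf4 (-1.76) and GADD45B (0.18), and for DUSP5 (-0.85), SPRY2 (-0.33), ETV4 (-3.45), EGR1 (-4.03), EPHA2 (-0.29), ERRFI1 (-0.51), IER2 (-0.11), BMF (0.47) and KRT19 (0.044), which were not called. Against the highest single agent the sign turned for 11 list medians, among them interferon (0.069), matrix and YAP (0.14), other cell type markers (0.54), glycolysis (-0.27), mitosis (-0.20) and FOXO (0.19), and the medians of SREBP targets (-0.51), ribosome biogenesis (0.11) and ribosomal proteins (0.017) became smaller. The linear sum and the highest single agent are other definitions of the expected level. With limma, leaving out each cell line in turn gave 0 genes, with 79 to 409 genes at an unadjusted p under 0.05. These counts too are lower than evenly spread p-values would give. The limma fit has the cell line as its block, which pairs the libraries of each cell line. Within Hep3B no paired analysis was possible, because each condition has 1 library. With 1 library per condition, how far a second culture would differ is not known.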

Other observations

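SOCS2 and MDGA1 were nearly without reads in untreated cells. SOCS2, a feedback inhibitor of cytokine signaling, had 3 reads in untreated cells, 66 with AZD8055, 205 with compound #57 and 466 with the combination. MDGA1 had 2, 14, 523 and 611 reads in the same order. Both were left out of the calls for the low untreated count, so no departure is given.

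AFP, the fetal liver protein and marker of HCC, had 5699.8, 3389.7, 9623 and 5091 reads per 10000000 in the same order of libraries and a departure of -0.17 (-0.24 to -0.10). CP, which encodes the copper protein ceruloplasmin, was far lower in both libraries with compound #57, with 1420.3, 2027, 94.8 and 60 reads and a departure of -1.16 (-1.58 to -0.75). C5 and CFI, of the complement system, were below the sum, at -1.24 (-1.35 to -1.13) and -1.22 (-1.41 to -1.03).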
